A study of Mus musculus with 27 samples.

Results

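The mouse mitochondrial genome carries 37 annotated genes, and all of them were followed here in RNA from 3 primary mouse cell types. Members were taken by position: every feature that the deposited files place on the chromosome named MT, whose symbols begin with mt-. They are 37 of the 55487 genes in the files and comprise 13 protein genes, 2 rRNA genes and 22 tRNA genes. No measured value entered this choice.

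The 27 libraries fall into 9 groups of 3. Microglia had been shaken off mixed glial cultures, bone marrow-derived macrophages (BMDM) had been grown from marrow in M-CSF, a macrophage growth factor, and primary hepatocytes had been kept on a collagen coat. Each cell type received an ethanol vehicle, 10 µM 24(S)-saringosterol (a sterol known from seaweeds) or 1 µM of a synthetic compound for 24 h without serum. The labels write the synthetic compound as GW3596, GW3964 or GW3965, of which the last is known as an agonist of the liver X receptors, and it is called GW below. Strain, sex and age are not in the labels. Microglia and BMDM were treated in DMEM/F12 with fatty-acid-free albumin, M-CSF and a supplement of insulin, transferrin and selenite. Hepatocytes were treated in Williams' E medium without these additions, so cell type and medium cannot be told apart where hepatocytes are compared with the other cells. The doses of the 2 compounds differ in every comparison between them, and within a cell type both are compared with the same vehicle libraries. No label says whether the replicates of a group were separate animals or cultures, and p-values therefore measure only the spread between these libraries, which may be technical. Since whole cultures were sequenced, fewer cells of a type and less RNA per cell cannot be told apart.

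Mitochondrial DNA is a small circle that a dedicated RNA polymerase reads from both strands as long transcripts. The tRNA genes lie between most of the other genes, and cutting the tRNAs out releases the mRNAs and rRNAs, a principle known as tRNA punctuation. The mRNAs encode core subunits of complexes I, III, IV and V of oxidative phosphorylation, and all other subunits, together with the proteins of mitochondrial transcription and translation, come from nuclear genes. Mitochondrial mRNAs and rRNAs carry short A tails as a rule, while mature tRNAs end in a CCA triplet. The libraries here were primed with oligo-dT.

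Counts of some members depend on neighbours or on copies, and the sequences of those genes are shown for that reason, from GENCODE M21 transcripts on build GRCm38. The tRNA genes mt-Tq (glutamine; MT 3772-3842, minus strand) and mt-Tp (proline; MT 15356-15422, minus strand) held most tRNA counts. The isoleucine gene mt-Ti (MT 3706-3774, plus strand) overlaps the end of mt-Tq by 3 bases on the opposite strand and the end of mt-Nd1 by 2 bases. Capitals mark bases shared with a neighbouring gene.
mt-Tq: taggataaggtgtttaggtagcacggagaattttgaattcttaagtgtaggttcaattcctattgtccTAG
mt-Ti: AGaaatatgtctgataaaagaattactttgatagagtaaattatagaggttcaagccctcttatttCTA
mt-Tp: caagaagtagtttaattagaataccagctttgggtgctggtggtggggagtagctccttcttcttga

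The genes mt-Atp8 and mt-Atp6, which encode the complex V subunits of the mitochondrial genome, are read from one mRNA and overlap by 43 bases. The whole mt-Atp8 gene (MT 7766-7969, plus strand) is shown with the overlap in capitals.
mt-Atp8: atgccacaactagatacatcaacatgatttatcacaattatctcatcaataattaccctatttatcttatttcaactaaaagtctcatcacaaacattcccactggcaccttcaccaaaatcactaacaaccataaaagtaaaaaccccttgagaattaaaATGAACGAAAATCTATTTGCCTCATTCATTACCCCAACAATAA

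Other members have near-identical copies in a block of nuclear DNA on chromosome 1 (24611535 to 24616197, minus strand). The copy Gm28437 differs from mt-Co3 at 0 of 783 bases, Gm28661 from mt-Co2 at 0 of 681 and Gm10925 from mt-Atp6 at 0 of 678. Gm28438 differs from mt-Nd3 at 1 of 345 bases, the substitution T3C. Gm29216 differs from part of mt-Co1 at 1 of 483 bases, the substitution A1066T. Positions are counted from the first base of the mitochondrial gene, whose base comes first. The stretches shown are mt-Nd3 at MT 9459-9491 with Gm28438 at chr1 24613087-24613119, mt-Co1 at MT 6390-6423 with Gm29216 at chr1 24616155-24616188, and mt-Co3 at MT 8969-9029 with Gm28437 at chr1 24613549-24613609. Capitals mark the differing base, and each copy is written in the direction of its mitochondrial gene.
mt-Nd3: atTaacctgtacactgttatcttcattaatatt
Gm28438: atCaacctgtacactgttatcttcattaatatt
mt-Co1: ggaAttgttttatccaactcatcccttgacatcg
Gm29216: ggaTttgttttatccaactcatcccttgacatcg
mt-Co3: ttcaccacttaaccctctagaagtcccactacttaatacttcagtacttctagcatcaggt
Gm28437: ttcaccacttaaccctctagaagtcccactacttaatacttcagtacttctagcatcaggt

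Libraries held about 30295900 to 41040300 counts in genes, of which 87400 to 297042 were mitochondrial. A gene without a count may still have had up to 3, or 0.0731 to 0.0990 CPM (counts-per-million), a limit that covers counting error only because the reads carry no molecular identifiers. All 37 members were tabulated, and 18 had a count in every library. The low-count filter kept 17 members in microglia, 17 in BMDM, 19 in hepatocytes and 20 in the fit of all libraries. Some markers kept to the labelled cell types. Alb, encoding albumin, reached 6447 CPM or more in hepatocytes and at most 0.0781 CPM elsewhere. The macrophage receptor gene Csf1r had 995 CPM or more in microglia and BMDM and at most 1.14 CPM in hepatocytes. Others did not: the macrophage gene Cd68 had 324 to 374 CPM in hepatocytes. The microglial gene Sall1 had a median of 77.8 CPM in hepatocytes, against 2.79 CPM in microglia. The microglial genes P2ry12 and Tmem119 were low in microglia, at medians of 13.4 and 3.34 CPM, against 6.45 and 0.590 CPM in BMDM, and Siglech was at 0 in all 9 microglia libraries.

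Mitochondrial genes took a small share of all counts in every library. In vehicle-treated microglia the share was 0.294, 0.272 and 0.250%, in BMDM 0.625, 0.583 and 0.512%, and in hepatocytes 0.621, 0.696 and 0.626%. Microglia were lowest, without overlap, while BMDM and hepatocytes overlapped. The split between gene kinds differed between the cells: rRNA made up 33.7 ± 2.77% (SD, n = 3) of mitochondrial counts in microglia, 36.4 ± 2.61% in BMDM and 58.6 ± 2.04% in hepatocytes. With the rRNA genes set aside, the 13 protein genes held 0.179 ± 0.00739% of all counts in microglia, 0.362 ± 0.0220% in BMDM and 0.267 ± 0.00481% in hepatocytes, so that BMDM stood highest. The tRNA genes together held 6.64 ± 1.43 CPM in microglia, 13.1 ± 3.61 in BMDM and 6.43 ± 0.335 in hepatocytes.

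**Figure D1:**
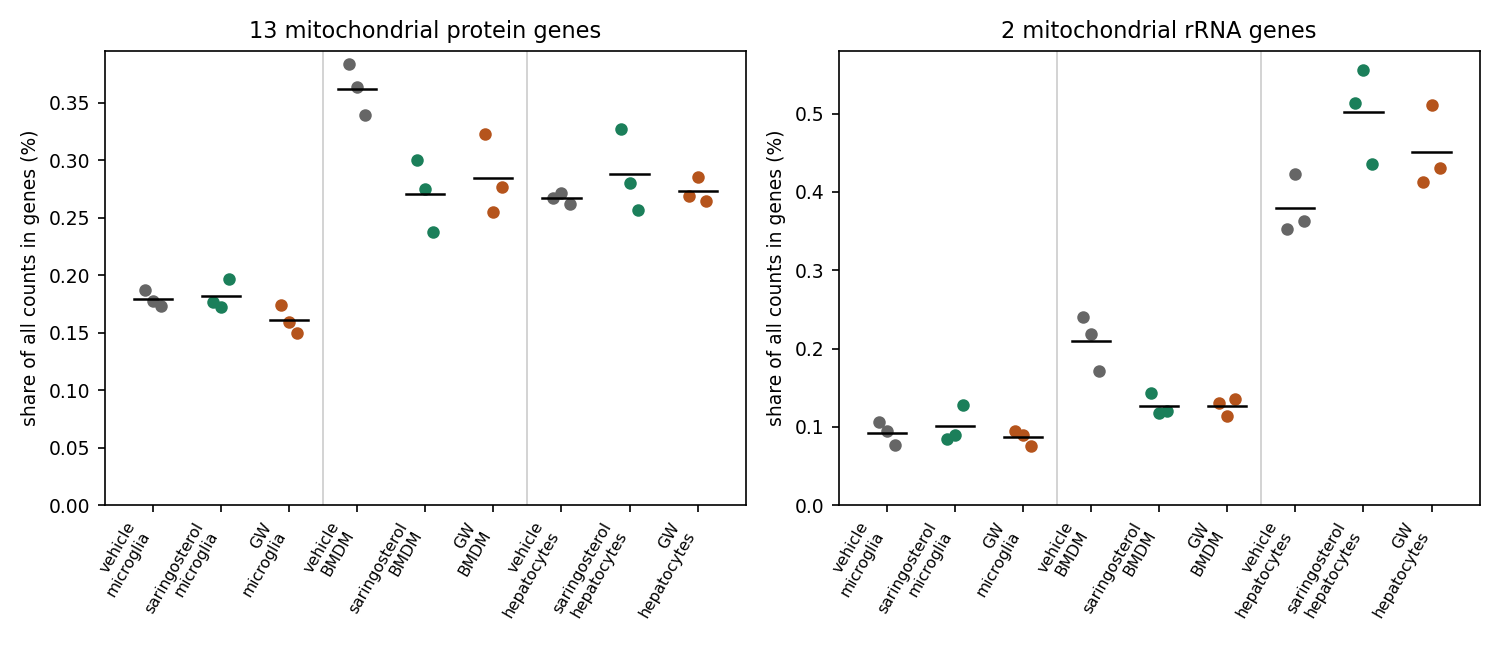
Share of all counts in genes (%, linear axes with different scales) held by the mitochondrial protein genes and by the mitochondrial rRNA genes, 1 point per library and a bar at the mean of 3. Vehicle BMDM stand above the treated BMDM in both panels, and the rRNA genes are highest in hepatocytes.

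Per length, in TPM (transcripts-per-million, scaled by gene length), the large rRNA gene mt-Rnr2 ranked first over the vehicle libraries with a mean of 3685 TPM, followed by mt-Co1 at 1915, mt-Cytb at 1217 and mt-Nd1 at 1186 TPM. The small rRNA gene mt-Rnr1 came next at 626 TPM. Then stood mt-Nd5 at 441, mt-Nd4 at 362, mt-Nd2 at 288, mt-Co3 at 248, mt-Nd6 at 246, mt-Atp6 at 187 and mt-Co2 at 144 TPM. The last 3 places belonged to mt-Nd4l at 12.9, mt-Atp8 at 12.4 and mt-Nd3 at 9.38 TPM. The order was not the same in each cell type. For example, mt-Co3 and mt-Nd6 were at 201 ± 32.0 and 137 ± 30.0 TPM in microglia and at 132 ± 4.8 and 248 ± 38.5 TPM in hepatocytes, and so changed places.

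The 3 lowest genes are short, and mt-Nd3 and mt-Nd4l are among the genes with nuclear copies. Of all windows of 50 bases, the share that also occurs in a transcript outside the mitochondrial genome was 100% for mt-Co2, 99.9% for mt-Co3, 99.5% for mt-Atp6, 98.8% for mt-Nd4l and 98% for mt-Nd3. It was 62.2% for mt-Nd4, 51.1% for mt-Co1, 8.19% for mt-Nd2, 7.61% for mt-Nd5 and 1.04% for mt-Rnr2. No window was shared for mt-Rnr1, mt-Nd1, mt-Atp8, mt-Nd6 and mt-Cytb. The search covered annotated transcripts only. Among the 5 genes at 90% or more, vehicle means went up to 410.0 TPM (mt-Co3 in BMDM), whereas the 8 genes under 10% ranged from 5.80 TPM (mt-Atp8 in hepatocytes) to 6104 TPM (mt-Rnr2 in hepatocytes). How reads that match several places were counted is not given in the sources used here, and levels of the genes with copies are uncertain for that reason.

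**Figure D2:**
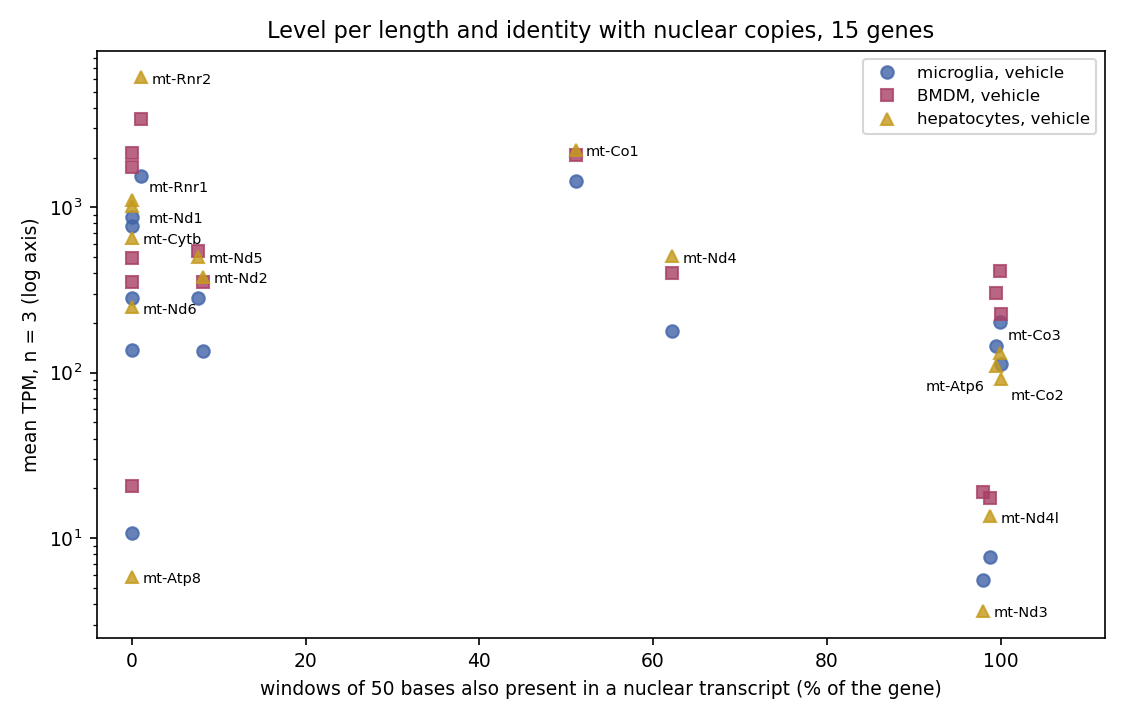
Mean level per length (TPM, log axis, n = 3 vehicle libraries per cell type) of the 13 protein and 2 rRNA genes against the share of their 50-base windows that also occurs in nuclear transcripts (%). Genes at 98% or more lie at or below 410.0 TPM, and mt-Atp8, with no shared window, is also low.

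Several copies carried counts of about the size of those in the genes they resemble. In vehicle BMDM, mt-Co3 (129, 116 and 101 CPM) stood beside Gm28437 (134, 121 and 104 CPM), and mt-Co2 (61.6, 57.0 and 48.0 CPM) beside Gm28661 (67.5, 63.7 and 49.6 CPM). For mt-Nd3 the copy was higher, with 2.48, 2.63 and 1.96 CPM in the gene and 12.2, 12.6 and 10.2 CPM in Gm28438. Summed over the 7 copies of the chromosome 1 block, the counts were 202 ± 28.7 CPM in vehicle microglia, 414 ± 59.6 in BMDM and 211 ± 2.25 in hepatocytes.

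Most tRNA counts fell on genes of the minus strand. Over all libraries the 8 minus-strand tRNA genes held 7741 counts, 94.8% of the tRNA total, and the 14 plus-strand genes held 427. The genes mt-Tp (3732 counts) and mt-Tq (3516 counts) accounted for most of them, with group means between 81.7 and 92.9% of the tRNA counts. Next to them on the genome, on the plus strand, mt-Ti had 26 counts, mt-Tm (methionine) 194 counts and mt-Tt (threonine) 4 counts. The aspartate gene mt-Td had no count in any library. The strand setting of the counting is not given in the sources used here, and without strand, reads from the 2 strands of one place cannot be told apart.

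Vehicle-treated cells were compared in the fit of all 27 libraries (edgeR's quasi-likelihood test, Benjamini-Hochberg adjustment over all genes, called at an adjusted p under 0.05). In microglia against BMDM, 17 of 20 tested members were lower and 0 higher, where 22% of all genes tested were called lower. Their log2 fold changes ran from -0.64 ± 0.07 (SE) for mt-Co1 to -1.86 ± 0.33 for mt-Nd3, with mt-Rnr2 at -1.24 ± 0.15, mt-Nd1 at -1.29 ± 0.10 and mt-Cytb at -1.38 ± 0.11. The 3 members that were not called, mt-Tl1 (leucine), mt-Tm and mt-Ta (alanine), are tRNA genes of few counts. Single vehicle libraries decided 3 of the calls: mt-Rnr1 lost its call without BMDM replicate 1 or microglia replicate 3, mt-Tq without BMDM replicate 2, and mt-Atp8 without BMDM replicate 1 or 2 or microglia replicate 2 or 3.

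Hepatocytes differed from microglia in both directions. Of 20 members, 13 were called, 6 higher and 7 lower, where 73.5% of all genes were called. The share of members called was close to that of all genes, and no difference is read from it. The higher ones were mt-Rnr1 (log2 fold change 1.66 ± 0.30), mt-Rnr2 (1.67 ± 0.15), the complex I genes mt-Nd2 (1.17 ± 0.15), mt-Nd4 (1.18 ± 0.13) and mt-Nd5 (0.51 ± 0.10), and mt-Co1 (0.31 ± 0.07). The lower ones were mt-Tq, mt-Co2, mt-Co3, mt-Atp6, mt-Atp8, mt-Nd3 and mt-Cytb, with mt-Cytb at -0.74 ± 0.11 and mt-Co3 at -0.93 ± 0.13. With plain library totals in place of TMM scaling the median of all genes moved by 0.375, and the split became 10 higher and 4 lower, with the calls of mt-Co2, mt-Atp8 and mt-Nd3 lost. Those of mt-Atp8 (hepatocyte replicate 1, microglia replicate 1) and mt-Nd3 (hepatocyte replicate 3, microglia replicate 2) were also lost without single libraries.

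Against BMDM, mt-Rnr1 (0.75 ± 0.29) and mt-Rnr2 (0.43 ± 0.14) were higher in hepatocytes and 13 members lower. That made 15 of 20 members called, about the same share as the 75.2% of all genes called. The largest differences among the called mRNA genes were those of mt-Nd3 (-2.79 ± 0.34), mt-Atp8 (-2.25 ± 0.45), mt-Cytb (-2.11 ± 0.11) and mt-Co3 (-2.05 ± 0.13). Here plain totals moved the median of all genes by 0.391, gave 3 higher and 9 lower, and turned mt-Co1 from -0.33 to 0.0797. Both rRNA calls were lost without BMDM replicate 3 or hepatocyte replicate 2, that of mt-Rnr1 also without BMDM replicate 2, and the call of mt-Nd4l was lost in 4 of the 6 omissions of a vehicle library.

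In microglia, no member passed the test with saringosterol. edgeR called 0 of 17, with 0 at an unadjusted p under 0.05, and DESeq2 and limma-voom also called 0, where 10.8% of all genes were called. The log2 fold changes lay between -0.60 and 0.41 with a median of 0.05. The summed share was 0.262, 0.263 and 0.326%, which overlaps the vehicle values, and replicate 3 was the highest. Without that library the difference of the summed shares, 0.06 on the log2 scale, became -0.05. The 95% interval of the difference was narrow for abundant mRNAs, -0.10 to 0.17 for mt-Cytb and -0.15 to 0.01 for mt-Co1, and wide for mt-Rnr1, -1.4 to 0.66.

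In microglia treated with GW, mt-Cytb was lower and mt-Nd1 higher, so members moved in opposite directions. The gene mt-Cytb encodes cytochrome b, the only mitochondrially encoded subunit of complex III. It had 357, 336 and 328 CPM in the vehicle libraries, 334, 334 and 386 CPM with saringosterol and 239, 212 and 204 CPM with GW. Every GW library lay under every other microglia library. The log2 fold change of GW against vehicle was -0.58 ± 0.06 (edgeR adjusted p = 4.5e-06). The gene mt-Nd1 encodes a membrane subunit of complex I. It had 264, 248 and 241 CPM with vehicle and 328, 305 and 280.4 CPM with GW, without overlap, a log2 fold change of 0.34 ± 0.07 (edgeR adjusted p = 0.0018). Both calls held under all 8 other settings and all 6 omissions of a library.

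The complex I gene mt-Nd5 was also called. It went from 179.5, 177 and 168 CPM to 157, 141 and 129 CPM, a log2 fold change of -0.24 ± 0.08 (edgeR adjusted p = 0.035), and this call was lost in 5 of 6 omissions, all but that of GW replicate 1. In all, 1 member was higher and 2 were lower, where 28.7% of all genes were called. That split was 2 higher and 2 lower with RLE size factors and with DESeq2, and 1 higher and 3 lower with plain totals. Without GW replicate 1 the count rose to 5. Among the members that did not pass, mt-Nd2, which follows mt-Nd1 on the same strand, had 52.8, 46.7 and 42.7 CPM with vehicle and 75.0, 67.3 and 58.0 CPM with GW (log2 fold change 0.55 ± 0.17, edgeR adjusted p = 0.053). The log2 fold change of mt-Co3 was -0.37 ± 0.14 (edgeR adjusted p = 0.086). The rRNA genes were not called, with mt-Rnr2 at 0.02 ± 0.18 and mt-Rnr1 at -0.48 ± 0.43.

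The ratio of the counts of mt-Cytb to those of mt-Nd1 sets both genes against each other within a library. It was 1.35, 1.35 and 1.36 in vehicle microglia, 1.32, 1.30 and 1.29 with saringosterol and 0.728, 0.697 and 0.728 with GW. In BMDM it was 1.4, 1.46 and 1.46 with vehicle and 1.44, 1.49 and 1.51 with GW. Hepatocytes had 0.774, 0.765 and 0.761 with vehicle and 0.747, 0.738 and 0.739 with GW. GW-treated microglia thus stood near the ratio of hepatocytes, while GW-treated BMDM did not. This ratio is one of 4 that were computed, is described after its values were seen, and is given without a test. Neither gene shares a window with an annotated nuclear transcript.

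**Figure D3:**
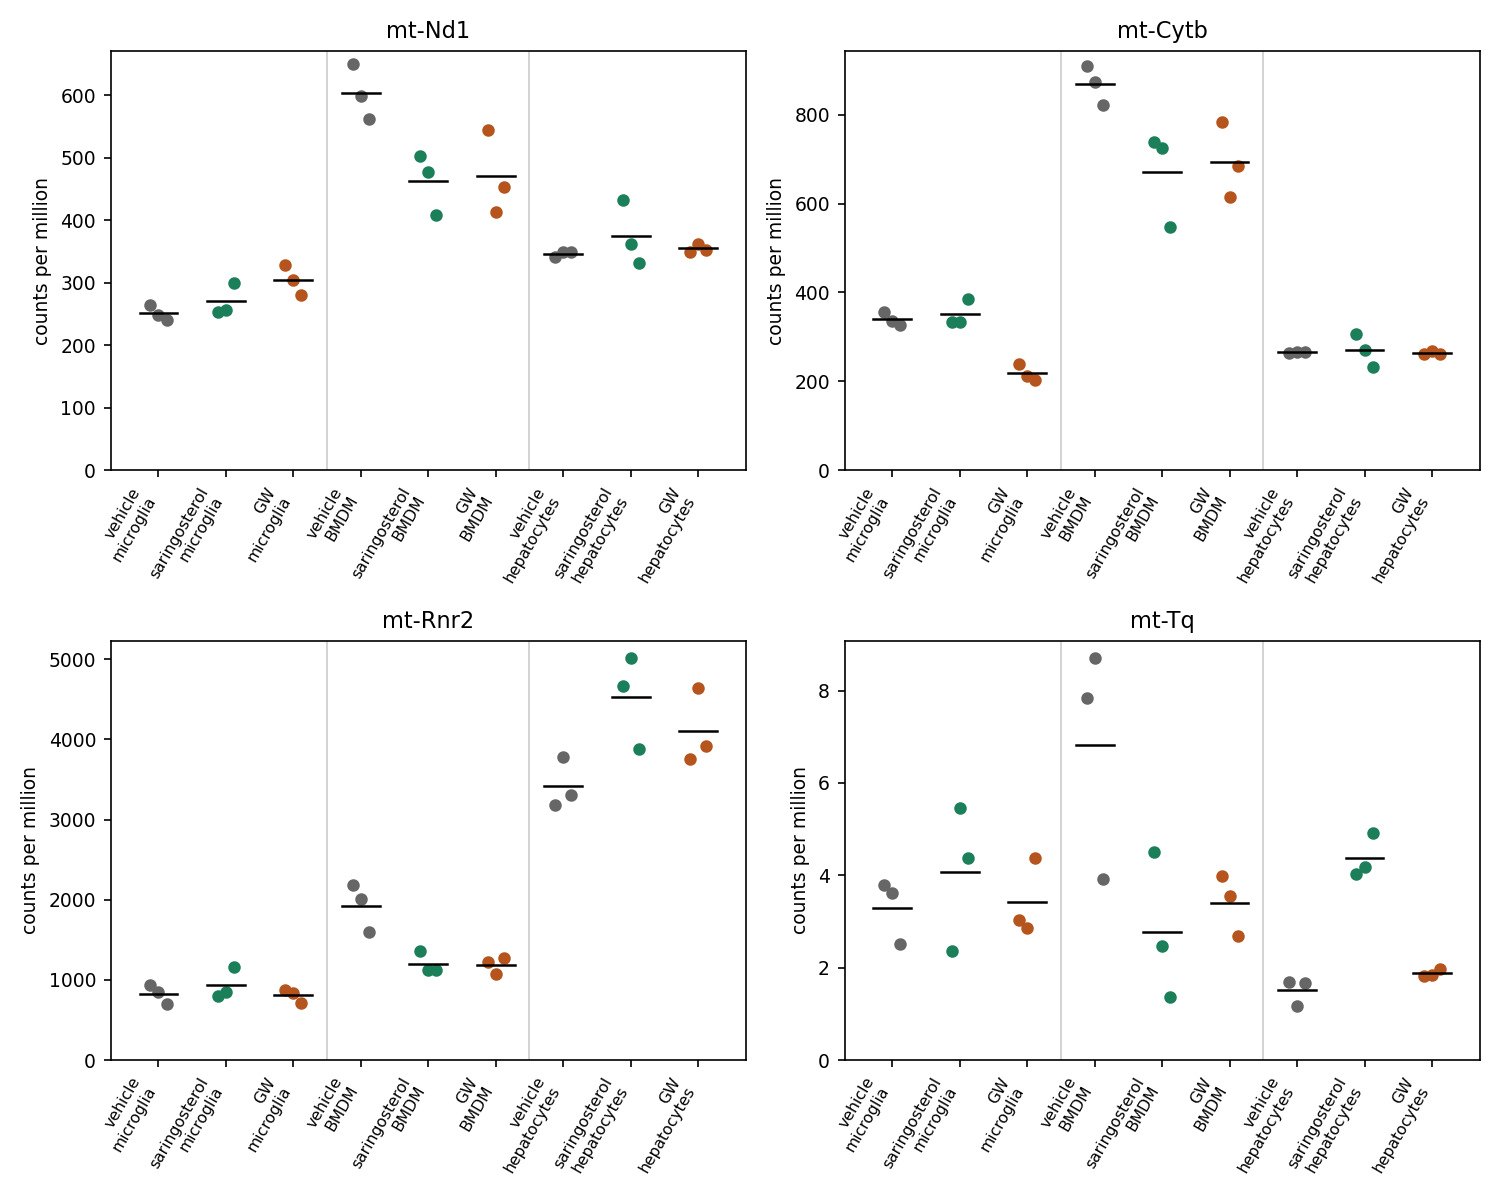
Normalised counts (CPM) of mt-Nd1, mt-Cytb, mt-Rnr2 and mt-Tq, 1 point per library and a bar at the mean of 3, for vehicle, saringosterol and GW in each cell type (linear axes with different scales). mt-Cytb is lower and mt-Nd1 higher in GW-treated microglia, mt-Rnr2 is lower in treated than in vehicle BMDM, and mt-Tq is higher in saringosterol-treated hepatocytes.

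Set against each other in microglia, at unequal doses, saringosterol and GW differed in 3 members, where 25.5% of all genes were called. With saringosterol mt-Cytb was higher by a log2 fold change of 0.61 ± 0.06 (edgeR adjusted p = 3.3e-06) and mt-Nd5 by 0.32 ± 0.08 (edgeR adjusted p = 0.0073). The log2 fold change of mt-Nd1 was -0.25 ± 0.07 (edgeR adjusted p = 0.016). The split of 2 higher and 1 lower became 3 higher and 1 lower with RLE size factors and DESeq2 and 4 higher and 0 lower with plain totals, and the count became 5 without GW replicate 1. Leaving out saringosterol replicate 2 ended the call of mt-Nd1. GW-treated microglia also had a higher sum over the homeostatic microglia list (10 genes, 1174 to 1201 CPM, with Siglech at 0) than vehicle (936 to 965 CPM) or saringosterol libraries (952 to 969 CPM). Most of these sums came from other genes of the list than P2ry12, Tmem119 and Sall1, which had at most 22.1, 4.86 and 3.55 CPM in microglia. The 7 genes of the astrocyte list, none at 0 in a whole group, summed to 44.4 to 50.3 CPM with GW, 38.2 to 40.4 CPM with vehicle and 25.4 to 30.9 CPM with saringosterol. The 10 macrophage genes, none at 0, were lower with either compound, at 6806 to 6886 CPM, 7476 to 7655 CPM and 6446 to 6575 CPM in that order. The 10 hepatocyte genes summed to 2004 to 2118 CPM, 1525 to 1546 CPM and 1433 to 1508 CPM, most of it from Trf (1358 CPM or more), while Tat and Cps1 were at 0 in each group and Alb had at most 0.0781 CPM. The 5 neuron genes, none at 0, summed to 4.29 to 5.20 CPM, 4.24 to 5.52 CPM and 3.09 to 3.63 CPM, the 6 endothelial genes to 21.8 to 25.5 CPM (Lyve1 at 0), 16.9 to 21.2 CPM (Tek at 0) and 22.4 to 24.9 CPM, and the 7 neutrophil genes, with S100a9 at 0, to 1.58 to 2.05 CPM, 2.40 to 2.93 CPM and 2.55 to 3.61 CPM. The part of these cells in the results was not tested.

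In BMDM the values of all 17 tested members were lower on average with both compounds. The summed mitochondrial share was 0.625, 0.583 and 0.512% with vehicle, 0.444, 0.394 and 0.358% with saringosterol and 0.454, 0.370 and 0.413% with GW. Neither treated group overlapped the vehicle libraries, and the 2 treated groups overlapped each other. On the log2 scale the mean shares differed from vehicle by -0.52 (saringosterol) and -0.47 (GW).

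With saringosterol, 10 of 17 members were called lower in BMDM and 0 higher, where 10.7% of all genes were called and 5.12% called lower. All 17 had an unadjusted p under 0.05, and in 15 the treated and vehicle libraries did not overlap, where 13.5% of all genes were lower without overlap. Counts at an unadjusted p, here and elsewhere, have no share of all genes beside them. Members are read from shared long transcripts, so these are not counts of independent genes. The median log2 fold change over the members was -0.64, against -0.01 over all genes. The count was 6 without saringosterol replicate 2, vehicle replicate 1 or vehicle replicate 2, and 16 by limma-voom.

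Both rRNA genes were among those called. The gene mt-Rnr1, encoding the RNA of the small mitochondrial ribosomal subunit, had 218, 170.1 and 117 CPM with vehicle and 72.9, 60.2 and 73.8 CPM with saringosterol. Its log2 fold change was -1.28 ± 0.24 (edgeR adjusted p = 0.023). The gene of the large subunit's RNA, mt-Rnr2, had 2180.4, 2009.8 and 1594 CPM against 1357, 1119 and 1127 CPM, a log2 fold change of -0.68 ± 0.12 (edgeR adjusted p = 0.0087). Vehicle replicate 3 was the lowest vehicle library for both, yet lay above all saringosterol libraries. The call of mt-Rnr1 was lost in 4 of 6 omissions and in the fit of the 2 groups alone, that of mt-Rnr2 without saringosterol replicate 3.

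Of the 7 complex I genes, 3 were called. The gene mt-Nd2 had 138, 137 and 117 CPM with vehicle and 98.2, 83.0 and 70.6 CPM with saringosterol (log2 fold change -0.64 ± 0.13, edgeR adjusted p = 0.021). The short mt-Nd3 (2.48, 2.63 and 1.96 CPM against 1.61, 1.08 and 1.13 CPM) and mt-Nd4l (1.93, 1.42 and 2.24 CPM against 0.621, 0.788 and 0.881 CPM) had log2 fold changes of -0.89 ± 0.27 and -1.28 ± 0.31. The other 4 did not pass the test. Of these, mt-Nd1 (651, 599 and 563 CPM against 502, 477 and 409 CPM) had a log2 fold change of -0.38 ± 0.11 (edgeR adjusted p = 0.063), and mt-Nd4, mt-Nd5 and mt-Nd6 had -0.49, -0.40 and -0.86. The libraries of mt-Nd6, the protein gene of the minus strand, overlapped (71.3, 73.6 and 51.9 CPM against 52.3, 28.5 and 27.3 CPM). The calls of mt-Nd2 and mt-Nd3 were lost in 3 and 4 of 6 omissions, and that of mt-Nd4l without vehicle replicate 3. Nuclear transcripts share 98% (mt-Nd3) and 98.8% (mt-Nd4l) of the 50-base windows of these genes. Over these windows, reads of the genes cannot be told apart from those of the copies.

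The 3 complex IV genes, which encode the core of cytochrome c oxidase, were all called. For mt-Co1 the values were 1190.4, 1140.3 and 1125 CPM with vehicle and 984, 839 and 844 CPM with saringosterol, a log2 fold change of -0.37 ± 0.08 (edgeR adjusted p = 0.011). For mt-Co2 they were 61.6, 57.0 and 48.0 CPM against 35.9, 36.7 and 33.6 CPM, a log2 fold change of -0.64 ± 0.11 (edgeR adjusted p = 0.0016), and mt-Co3 had -0.63 ± 0.12. In complex V, mt-Atp6 was called (85.0, 73.1 and 64.6 CPM against 51.2, 49.6 and 43.7 CPM, log2 fold change -0.62 ± 0.12, edgeR adjusted p = 0.0074). Its low neighbour mt-Atp8 was not, at -1.14 ± 0.39 (edgeR adjusted p = 0.071). The calls of mt-Co2, mt-Co3 and mt-Atp6 held in all 6 omissions and all 8 other settings, and mt-Co1 lost its call without saringosterol replicate 2 or vehicle replicate 1. However, mt-Co2, mt-Co3 and mt-Atp6 share 99.5% or more of their 50-base windows with nuclear transcripts. Their reads cannot be told apart from those of the copies over these windows, which the omissions and settings do not address.

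Complex III's mt-Cytb was not called in BMDM. It had 908, 874 and 821 CPM with vehicle and 738, 724 and 548 CPM with saringosterol, without overlap, and a log2 fold change of -0.37 ± 0.13 (edgeR adjusted p = 0.12). Among the tRNA genes mt-Tp fell from 5.46, 6.04 and 4.42 CPM to 3.70, 3.35 and 2.76 CPM, a log2 fold change of -0.70 ± 0.18 (edgeR adjusted p = 0.015), a call lost in 3 of 6 omissions. The overlapping values of mt-Tq (7.84, 8.70 and 3.93 CPM against 4.50, 2.46 and 1.37 CPM) gave a log2 fold change of -1.30 ± 0.45 (edgeR adjusted p = 0.12).

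GW gave fewer calls in BMDM. Of 17 members, 5 were called lower, where 4.76% of all genes were called lower. They were mt-Rnr1 (-1.07 ± 0.24, edgeR adjusted p = 0.041), mt-Rnr2 (-0.66 ± 0.12, adjusted p = 0.0096), mt-Nd2 (-0.53 ± 0.13, adjusted p = 0.042), mt-Co2 (-0.38 ± 0.11, adjusted p = 0.034) and mt-Tp (-0.56 ± 0.18, adjusted p = 0.046). All 17 fold changes were below 0 with a median of -0.46, 12 had an unadjusted p under 0.05, and 12 were lower without overlap, where 18.5% of all genes were. The values of mt-Rnr2 with GW were 1226, 1079.7 and 1271 CPM, under all vehicle libraries. The count of 5 fell to 1 without GW replicate 2, GW replicate 3, vehicle replicate 1 or vehicle replicate 2, and it was 13 by DESeq2 and 11 in a fit of the 2 groups alone. The call of mt-Rnr2 held in all 6 omissions.

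No member passed the test between saringosterol and GW in BMDM, at unequal doses. edgeR called 0 of 17, with 3 at an unadjusted p under 0.05, where 9.33% of all genes were called. DESeq2 called 1 and limma-voom 0. The 95% intervals of the log2 difference were -0.29 to 0.26 for mt-Rnr2, -0.28 to 0.07 for mt-Co1 and -0.79 to 0.37 for mt-Rnr1. The 3 members under 0.05 before adjustment were mt-Co2 (-0.26, interval -0.49 to -0.03), mt-Co3 (-0.30, interval -0.56 to -0.04) and mt-Atp6 (-0.27, interval -0.53 to -0.01), all genes with a nuclear copy. Without GW replicate 2 the count became 3.

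**Figure D4:**
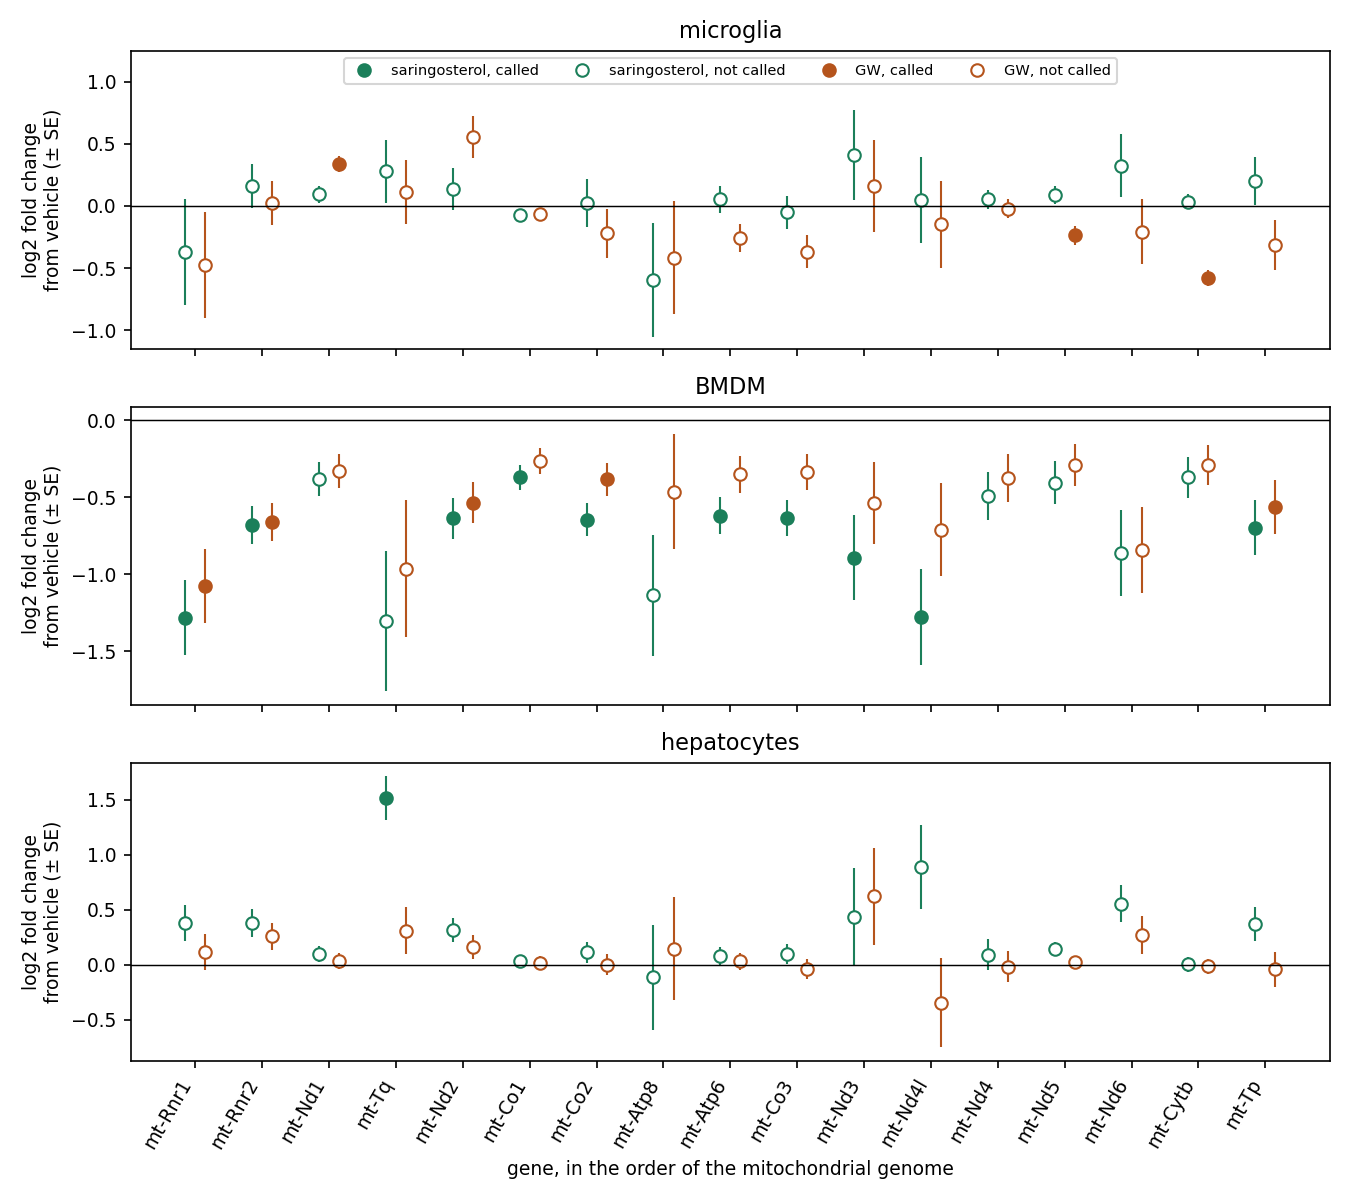
Log2 fold changes from vehicle (± SE, edgeR) of members in genome order, for saringosterol and GW in each cell type, where filled points passed an adjusted p under 0.05. All BMDM points lie below 0, microglia points lie on both sides, and 1 hepatocyte point, mt-Tq with saringosterol, is filled (the scales of the panels differ).

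Markers of other cells also moved between the BMDM groups. The 6 endothelial genes summed to 29.4 to 30.9 CPM with vehicle (Cdh5, Tek and Lyve1 at 0), 50.7 to 59.4 CPM with saringosterol (Tek at 0) and 86.1 to 88.8 CPM with GW (none at 0 in all 3 libraries). The 7 neutrophil genes summed to 63.3 to 74.0 CPM with vehicle, 46.9 to 59.7 CPM with saringosterol and 37.2 to 45.8 CPM with GW (Ly6g at 0). The 10 macrophage genes, none at 0, summed to 8012 to 8433 CPM, 7034 to 7584 CPM and 7193 to 7613 CPM. The 7 astrocyte genes summed to 20.01 to 21.03 CPM with vehicle (Gfap and Aqp4 at 0), 9.70 to 14.04 CPM with saringosterol (Aqp4 at 0) and 19.3 to 23.3 CPM with GW (Aqp4 and S100b at 0). The 10 hepatocyte genes summed to 1434 to 1612 CPM, 931 to 1422 CPM and 1910.2 to 2015 CPM, most of it from Trf (918 CPM or more), with Apoa1, Ttr, Serpina1a, Fgb and Tat at 0 in each group and Alb at or under 0.0276 CPM. The 7 fibroblast and stellate genes summed to 1.18 to 2.40 CPM, 0.342 to 0.493 CPM and 0.0257 to 0.835 CPM (Lrat at 0 in each group), and the 5 neuron genes to 0.940 to 1.23 CPM, 0.373 to 0.978 CPM and 0.498 to 0.642 CPM (Syt1 at 0 in each group). The 4 cholangiocyte genes summed to 0.359 to 1.36 CPM with vehicle (Sox9 at 0) and 0.180 to 0.249 CPM with GW. The part of any of these lists in the lower mitochondrial values was not tested.

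Counts assigned to nuclear copies were also lower in treated BMDM. The copies Gm28661, Gm10925, Gm28437, Gm10222 and Gm28439 differ from their mitochondrial genes at 0 aligned bases. Their counts cannot be told apart from reads of the members and are not a separate result. Of the 8 listed copies, 6 were called lower with saringosterol (median log2 fold change -0.66), where 5.12% of all genes were called lower, and 4 with GW (median -0.51), where 4.76% were. The list includes Gm10221, for which the search of transcripts found no 50-base window in common with a member. Gm10221 was among the 4 called with GW. In microglia edgeR called 0 of 8 with either compound, with 0 at an unadjusted p under 0.05. There 10.8% (saringosterol) and 28.7% (GW) of all genes were called. In hepatocytes edgeR called 0 of 8, with 4 (saringosterol) and 0 (GW) at an unadjusted p under 0.05. Only 1.91% and 1.11% of all genes were called in hepatocytes, so 0 of 8 does not set the copies apart there. Gm28438, the mt-Nd3 copy, had log2 fold changes of -0.88 ± 0.15 (edgeR adjusted p = 0.00098) with saringosterol and -0.81 ± 0.15 (edgeR adjusted p = 0.0015) with GW. Gm28437, the mt-Co3 copy, had -0.68 ± 0.11 and -0.42 ± 0.11. The 7 copies of chromosome 1 summed to 414 ± 59.6 CPM with vehicle, 262 ± 27.3 with saringosterol and 292 ± 43.1 with GW. The called rRNA genes share no window (mt-Rnr1) or 1.04% of windows (mt-Rnr2) with such transcripts.

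Further copies carried counts as well, and Gm28439, Gm10222 and Gm10221 of the list above are given here singly. In vehicle BMDM the copies of the chromosome 2 block had 96.0, 86.8 and 74.3 CPM (Gm13340, of mt-Co1), 19.9, 18 and 18.2 CPM (Gm13341, of mt-Co2) and 3.0, 2.69 and 2.87 CPM (Gm13339, of mt-Nd2). Their log2 fold changes with saringosterol were -0.62 ± 0.12 (edgeR adjusted p = 0.0085), -0.48 ± 0.16 and -0.93 ± 0.27 (edgeR adjusted p = 0.031), and with GW -0.33 ± 0.12, -0.13 ± 0.16 and -0.75 ± 0.27. Of the chromosome 1 block, Gm28439 (of mt-Nd4) had 16.6, 13.4 and 11.4 CPM and log2 fold changes of -0.64 ± 0.18 (edgeR adjusted p = 0.036) and -0.46 ± 0.18. Gm10222 (of mt-Nd4l) had 4.02, 3.11 and 2.27 CPM and -1.11 ± 0.26 (edgeR adjusted p = 0.0095) and -0.88 ± 0.26 (edgeR adjusted p = 0.033). Each of these copies except Gm13341 was called with saringosterol, and Gm10222 alone among them with GW. The low copies Gm4076 and Gm11407 (of mt-Nd5), Gm11512 (of mt-Co1), Gm20594 (of mt-Rnr2) and the listed Gm10221 (no shared window found) had vehicle BMDM values of 9.41, 6.34 and 5.20 CPM, 1.59, 1.27 and 1.22 CPM, 2.69, 2.75 and 2.68 CPM, 2.12, 2.25 and 1.77 CPM and 9.69, 8.85 and 6.33 CPM. The 1 call among them was Gm10221 with GW (-0.67 ± 0.16, edgeR adjusted p = 0.0087). In microglia Gm13340 was not called, with log2 fold changes of -0.19 ± 0.09 with saringosterol (edgeR unadjusted p = 0.044) and -0.21 ± 0.09 with GW (edgeR unadjusted p = 0.035). In BMDM the saringosterol call of Gm13340 held in all 6 omissions. Those of Gm10222 (saringosterol) and Gm10221 (GW) were lost in 2, Gm28439 (saringosterol) and Gm10222 (GW) in 4 and Gm13339 in 5, each of them without vehicle replicate 1.

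In hepatocytes, saringosterol raised 1 member, the glutamine tRNA gene mt-Tq on the minus strand. It had 1.69, 1.16 and 1.67 CPM with vehicle (69, 44 and 62 counts), 4.03, 4.17 and 4.91 CPM with saringosterol (122, 148 and 198 counts) and 1.82, 1.84 and 1.97 CPM with GW (72, 58 and 75 counts). Each saringosterol library held more than each of the other 6. The log2 fold change against vehicle was 1.51 ± 0.20 (edgeR adjusted p = 2.8e-05), and against GW, at unequal doses, 1.2 with a 95% interval of 0.80 to 1.60 (edgeR adjusted p = 0.00025). Both calls held under all 8 other settings and 6 omissions.

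That was 1 of 19 members against vehicle, where 1.91% of all genes were called and 0.888% called higher, and 1 of 19 against GW, where 0.714% were called higher. Of the other members, 7 had an unadjusted p under 0.05 in the comparison with vehicle. One was mt-Rnr2, with 3186, 3778 and 3309 CPM with vehicle and 4673, 5017 and 3884 CPM with saringosterol (log2 fold change 0.38 ± 0.13, edgeR adjusted p = 0.21). Another was mt-Nd6 (40.0, 53.1 and 43.9 CPM against 73.8, 71.0 and 59.7 CPM, 0.56 ± 0.17, edgeR adjusted p = 0.18). The values of mt-Tp were 3.90, 4.18 and 4.09 CPM against 6.14, 4.96 and 4.91 CPM (0.37 ± 0.16, edgeR adjusted p = 0.23). In 7 members the saringosterol libraries lay above all vehicle libraries, where 11.2% of all genes did. Abundant mRNAs of the plus strand had smaller differences, mt-Co1 0.04 ± 0.06, mt-Cytb 0.00 ± 0.07 and mt-Nd1 0.10 ± 0.07. The minus-strand members mt-Tq, mt-Nd6 and mt-Tp were among the 7 members that lay above vehicle without overlap, and so was mt-Rnr2 of the plus strand. The fourth minus-strand member tested, mt-Ta, overlapped (0, 5 and 10 counts against 11, 13 and 9). Of the 19 members, 18 had a log2 fold change above 0, with a median of 0.32. A difference between the strands was not tested.

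Saringosterol replicate 3 stood apart from the other hepatocyte libraries in some members. The values of mt-Nd4l with saringosterol were 1.45, 1.55 and 4.96 CPM and the counts of mt-Tm 11, 11 and 35, both highest in replicate 3, while its share of mitochondrial counts was the lowest (0.842, 0.837 and 0.694%). Without it 4 members were called against vehicle, and without vehicle replicate 2 there were 2. The count against GW became 2 without GW replicate 2, saringosterol replicate 1 or saringosterol replicate 2. The mean summed share differed from vehicle by 0.29 on the log2 scale, and by 0.11 for the protein genes alone. The 7 astrocyte-list genes summed to 94.7 to 100.2 CPM with saringosterol (Slc1a3 at 0) against 120.0 to 127 CPM with vehicle. The 6 endothelial genes, none at 0, summed to 1.86 to 1.89 CPM with saringosterol, 2.38 to 4.09 CPM with vehicle and 3.43 to 4.42 CPM with GW, and the 10 macrophage genes to 913 to 966 CPM, 936 to 1013 CPM and 972 to 1006 CPM (Itgam at 0 with GW). The 4 cholangiocyte genes, none at 0, summed to 174 to 192 CPM, 180.5 to 187 CPM and 159 to 164 CPM. The part of these lists was not tested.

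No member passed the test with GW in hepatocytes. edgeR called 0 of 19, with 0 at an unadjusted p under 0.05, and DESeq2 and limma-voom also called 0, where 1.11% of all genes were called. The 95% interval for mt-Rnr2 ran from -0.04 to 0.56, for mt-Co1 from -0.10 to 0.14 and for mt-Cytb from -0.17 to 0.14.

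Differences between the cell types in their response were tested as interaction terms. The response to saringosterol was lower in BMDM than in hepatocytes for 13 of 20 members, where 3.13% of all genes were called lower, with mt-Rnr2 at -1.02 and mt-Tq at -2.78. The count was 7 without BMDM vehicle replicate 1 and 8 without hepatocyte saringosterol replicate 1 or hepatocyte vehicle replicate 3. The response of microglia to saringosterol exceeded that of BMDM in mt-Rnr2, mt-Atp6 and mt-Tp, where 0.769% of all genes were called higher. That count of 3 became 9 without BMDM saringosterol replicate 1, 5 without BMDM vehicle replicate 3 and 1 without BMDM saringosterol replicate 2. It was 0 without replicate 3 of either saringosterol group, BMDM vehicle replicate 1 or 2, or microglia vehicle replicate 2 or 3. Between microglia and hepatocytes edgeR called 0 of 20 for saringosterol, with 1 at an unadjusted p under 0.05, and DESeq2 and limma-voom called 0, where 1.18% of all genes were called.

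For GW, the response of microglia exceeded that of BMDM in mt-Nd1 (0.66), mt-Nd2 (1.08) and mt-Rnr2 (0.67), 3 of 20 members, where 4.43% of all genes were called higher. The call of mt-Rnr2 was lost in 9 of 12 omissions. Between microglia and hepatocytes mt-Cytb was called, at -0.54 (edgeR adjusted p = 0.024), as 1 of 20 members, where 3.64% of all genes were called lower. This call was lost in 6 of 12 omissions: hepatocyte GW replicate 2 or 3, microglia GW replicate 2 or 3, hepatocyte vehicle replicate 2 and microglia vehicle replicate 1. BMDM and hepatocytes differed in mt-Rnr2, at -0.89, where 1.6% of all genes were called lower. That count of 1 became 4 without BMDM GW replicate 1, 3 without BMDM vehicle replicate 3, 2 without hepatocyte vehicle replicate 2 and 0 without BMDM vehicle replicate 1.

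The nuclear partners of these genes were followed in lists. Per length, the mitochondrial complex I subunits summed to 3448 ± 239.6 TPM in vehicle BMDM, 2620.4 ± 367 with saringosterol and 2659 ± 287 with GW. The nuclear complex I subunits summed to 4757 ± 209.9, 4865 ± 91.9 and 4383 ± 94.3 TPM. For complex V the mitochondrial subunits summed to 325 ± 45.8, 219 ± 20 and 257 ± 35.6 TPM and the nuclear ones to 2824 ± 23.1, 3129 ± 86.7 and 2758 ± 39.2 TPM.

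With saringosterol in BMDM, 3 of 75 tested nuclear subunits of complexes I to V were called higher and 3 lower (4 and 2 with RLE size factors), where 10.7% of all genes were called, and the median log2 fold change was 0.02. The share of called subunits was near that of all genes, and no difference is read from it. Atp5b, the catalytic beta subunit of ATP synthase, was higher (0.24 ± 0.06, edgeR adjusted p = 0.011) and Uqcrh of complex III lower (-0.24 ± 0.06, edgeR adjusted p = 0.015). With GW, 13 were called lower and 0 higher, with a median of -0.09, where 4.76% of all genes were called lower. Among them were Atp5k of complex V (-0.40 ± 0.08, edgeR adjusted p = 0.003), Ndufa13 of complex I (-0.30 ± 0.06), Cox6b1 of complex IV (-0.23 ± 0.05) and Uqcrq of complex III (-0.21 ± 0.06).

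Of 14 tested genes of mitochondrial DNA transcription and replication, 1 was called in BMDM with each compound. Of all genes 10.7% (saringosterol) and 10.4% (GW) were called, so this count is near the share of all genes. It was Polrmt, which encodes the mitochondrial RNA polymerase. It had 17.4, 17.6 and 22.3 CPM with vehicle, 24.0, 24.7 and 26.1 CPM with saringosterol and 23.4, 27.4 and 25.4 CPM with GW, so both treated groups lay above the vehicle libraries. The log2 fold changes were 0.38 ± 0.10 (edgeR adjusted p = 0.019) and 0.44 ± 0.10 (edgeR adjusted p = 0.0074), and both calls were lost without vehicle replicate 1 or 2, the GW call also without GW replicate 2. Tfam, which packages mitochondrial DNA and activates its transcription, was at -0.01 ± 0.09 and -0.05 ± 0.09 and was called in no comparison with vehicle. Lrpprc, which stabilises mitochondrial mRNAs, was higher in BMDM with saringosterol (0.28 ± 0.07, edgeR adjusted p = 0.012), and its partner Slirp was not called (-0.46 ± 0.33). In microglia Lrpprc was at 0.15 ± 0.05 with saringosterol and called higher with GW (0.14 ± 0.05, edgeR adjusted p = 0.039), a call lost with plain totals, limma-voom, the replicate block and without GW replicate 2 or 3 or vehicle replicate 2 or 3. Tfam was at -0.02 ± 0.09 and -0.05 ± 0.10 there, and Slirp at 0.14 ± 0.23 and -0.23 ± 0.23. In hepatocytes none of the 4 genes was called, and the values with saringosterol and GW were -0.18 ± 0.06 and -0.03 ± 0.06 for Polrmt, 0.17 ± 0.06 and 0.12 ± 0.06 for Tfam, -0.01 ± 0.05 and 0.00 ± 0.05 for Lrpprc, and 0.51 ± 0.18 and 0.04 ± 0.19 for Slirp.

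Counts in 3 further lists stand beside the 10.7% (saringosterol) and 10.4% (GW) of all genes called in BMDM. Of 20 tested genes of mitochondrial RNA processing and turnover, 3 were higher with saringosterol in BMDM, Lrpprc and Fastkd3 (0.35 ± 0.10) among them, and 1 with GW, Fastk (0.27 ± 0.08). Of 77 mitochondrial ribosomal protein genes, 3 were higher and 1 lower with saringosterol and 1 higher and 2 lower with GW. Mrpl44 was the higher one with GW (0.31 ± 0.07), and Mrpl52 (-0.44 ± 0.10) and Mrps18c (-0.34 ± 0.09) were the lower ones. Of 22 genes of import, porins and matrix housekeeping, 4 were higher with saringosterol in BMDM, led by the matrix chaperone gene Hspa9 (0.39 ± 0.06, edgeR adjusted p = 0.00021). The calls of Hspa9, Mrpl44, Mrpl52 and, with GW, Atp5k and Ndufa13 held in all 6 omissions of a library. That of Fastk was lost with plain totals, with limma-voom and in 4 omissions, and those of Fastkd3, Mrps18c and Uqcrq were lost in 4, Uqcrh with saringosterol in 3, Lrpprc and Cox6b1 in 2 and Atp5b in 1. These losses came without vehicle replicate 1, 2 or 3, saringosterol replicate 2 or 3, or GW replicate 1, 2 or 3, depending on the gene.

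In microglia with saringosterol, 11 of 75 nuclear subunits were called higher and 0 lower, where 4.19% of all genes were called higher, and the median was 0.10. They were spread over complex I (3), complex III (2), complex IV (3) and complex V (3). Uqcrfs1, the Rieske iron-sulfur subunit of complex III, had 67.6, 72.5 and 70.3 CPM with vehicle and 80.1, 83.3 and 85.6 CPM with saringosterol (0.23 ± 0.05, edgeR adjusted p = 0.00079). Atp5a1 of complex V (0.16 ± 0.04) and Cox4i1 of complex IV (0.14 ± 0.04) were higher too, and so was the chaperone gene Hspd1 (0.24 ± 0.04, edgeR adjusted p = 6e-05). Hspd1 belongs to the import, porin and matrix list, where 5 of 22 genes were called higher with saringosterol and 0 lower. With GW, 8 subunits were higher and 3 lower, where 28.7% of all genes were called, so a smaller share of the subunits was called than of all genes. With plain totals that split became 1 higher and 9 lower, so no direction is given for the list. Of 7 biogenesis regulators 3 were lower with GW under each of the 4 scalings, where 15.2% of all genes were called lower, among them Pprc1 (-0.23 ± 0.06, edgeR adjusted p = 0.0023) and Ppargc1b (-0.39 ± 0.11), both coactivators. Polrmt was called lower with GW (-0.20 ± 0.07, edgeR adjusted p = 0.039), a call lost in 3 of 8 other settings (DESeq2, limma-voom and RLE size factors) and without GW replicate 1 or 2 or vehicle replicate 2 or 3. With saringosterol it was at -0.06 ± 0.07. Of 20 tested genes of RNA processing and turnover, 2 were called higher and 3 lower with GW, near the 28.7% of all genes called. Among them Ptcd1 (-0.35 ± 0.08) and Tbrg4 (-0.40 ± 0.10) were lower, and Hsd17b10, a subunit of mitochondrial RNase P, was higher (0.30 ± 0.06). Of 77 mitochondrial ribosomal protein genes, 3 were higher and 9 lower with GW, also beside that 28.7%.

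Over these nuclear lists without the copies, counts of called genes depended on single libraries. In microglia and BMDM, 75 subunits were tested, with 14 genes of transcription and replication, 20 of RNA processing, 7 regulators, 22 of import and 77 ribosomal protein genes. Of all genes, 10.8% (saringosterol) and 28.7% (GW) were called in microglia and 10.7% and 10.4% in BMDM. In hepatocytes 1.91% were called with saringosterol. The counts are not read as a result about the lists. In microglia 23 genes were called with saringosterol (12 without saringosterol replicate 3, 14 without vehicle replicate 1 and 13 without vehicle replicate 2). With GW there were 39, of which 19 were higher and 20 lower (6 higher and 37 lower with plain totals, 23 and 15 with RLE size factors). Their number also moved with 1 library (24 without GW replicate 2, and 22 without GW replicate 3 or vehicle replicate 2). In BMDM 18 were called with saringosterol (4 and 10 without saringosterol replicates 2 and 3, 9 and 3 without vehicle replicates 1 and 2). With GW 20 were called (9 and 8 without GW replicates 2 and 3, 5 and 8 without vehicle replicates 1 and 2). In hepatocytes 4 were called with saringosterol, Ndufa3, Uqcrc1, Mterf3 and Mrpl33. That count was 1 without saringosterol replicate 1, 0 without saringosterol replicate 2 or vehicle replicate 1 or 3, 9 without saringosterol replicate 3 and 12 without vehicle replicate 2.

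**Figure D5:**
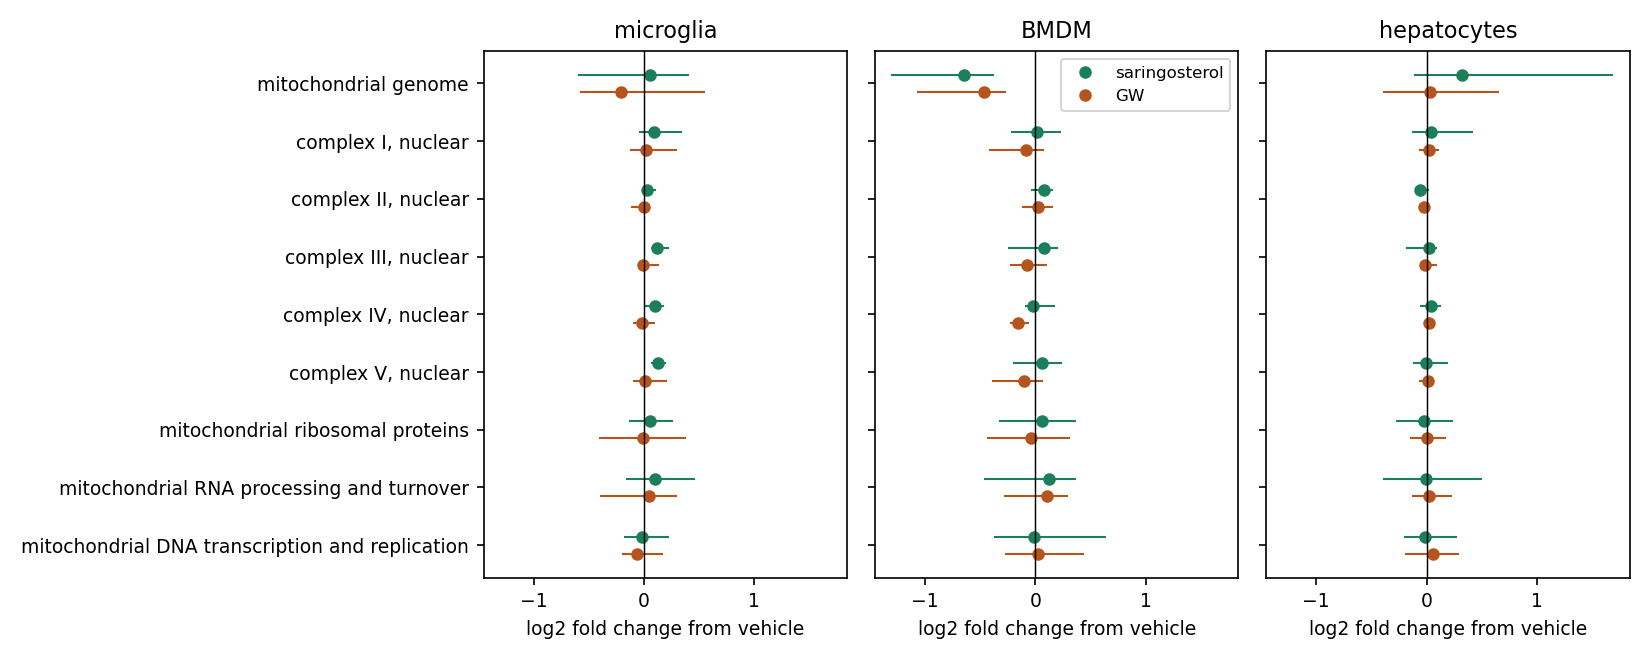
Median (point) and range (line) of the log2 fold changes from vehicle of the mitochondrial members and of 8 lists of nuclear genes for mitochondrial functions, by cell type and compound, on 1 shared scale. In BMDM the range of the mitochondrial genome lies below 0 with both compounds, with medians of -0.64 and -0.46, while the nuclear lists straddle 0 except complex IV with GW.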

How the data were processed

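RNA of 27 libraries from mouse cell cultures was sequenced after oligo-dT priming (SMARTer Ultra Low kit, per the labels' protocols). Per the submitters' processing notes, the authors used bcl2fastq, STAR 2.5.1a and Subread featureCounts 1.4.6-p5 with GRCm38. The annotation release, strand, overlap and multi-mapping settings, and the read length, were not given in the sources used here. The deposited count values are whole reads per gene. The deposited CPM values are these counts scaled by a library's total in genes. The deposited FPKM values are CPM per kilobase of gene length, and the deposited TPM values are length-scaled and have the same sum in each library. Printed CPM and TPM are the deposited values, and FPKM was only checked against the counts.

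Members, lists and tests were chosen with earlier results of these data known. Counts were filtered with filterByExpr, scaled by TMM and tested with edgeR 4.0.16 (quasi-likelihood, robust, limma 3.58.1, R 4.3.3), within each cell type (9 libraries) or over all 27 for cell types and interactions, with Benjamini-Hochberg adjustment over all genes and a threshold of 0.05. Standard errors are the fold change divided by the root of F. Alternatives were DESeq2 1.42.0, limma-voom, RLE factors, plain totals, scaling without mitochondrial genes, no filter, a replicate block, the 2 groups alone, and omission of each library. The code was tested on simulated data. Every mRNA and rRNA gene is named, tRNA genes that passed the filter, Polrmt, Tfam, Lrpprc and Slirp, copies above 1 CPM in any group (1 of them is not described), and per nuclear list at most the 2 called genes of lowest adjusted p in each direction. Other features were named after their values were seen. Sequences were read from GENCODE M21 transcripts, in which all 37 members have the same span as in the files. The marker list of oligodendrocytes is not reported here.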

Additional observations from a re-analysis of the deposited data

Results flagged for a closer look

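Differences between cell types in the response to a compound were tested for 20 members per contrast, and 21 of these interaction terms were called (edgeR's quasi-likelihood test on all 27 libraries, adjusted over all genes, 3 libraries per group). In the contrasts with a call, 0.769 to 4.43% of all genes were called in the same direction. Values are differences of log2 fold changes, the first cell type minus the second.

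For saringosterol, microglia against BMDM, the difference was 0.8309 for mt-Rnr2, 0.6656 for mt-Atp6 and 0.8917 for mt-Tp. These calls were lost in 8, 6 and 8 of 12 omissions of a library.

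For saringosterol, BMDM against hepatocytes, 13 members differed, all with the lower response in BMDM. The rRNA genes had -1.617 (mt-Rnr1) and -1.015 (mt-Rnr2). The complex I genes had -0.4361 (mt-Nd1), -0.9135 (mt-Nd2), -2.126 (mt-Nd4l), -0.5069 (mt-Nd5) and -1.379 (mt-Nd6). The complex IV and V genes had -0.3626 (mt-Co1), -0.7123 (mt-Co2), -0.6871 (mt-Co3) and -0.6545 (mt-Atp6). The tRNA genes had -2.779 (mt-Tq) and -1.026 (mt-Tp). The calls of mt-Rnr2, mt-Tq, mt-Nd2, mt-Atp6, mt-Nd4l, mt-Nd6 and mt-Tp held in all 12 omissions, while that of mt-Nd1 was lost in 10, mt-Co2 in 8, mt-Nd5 in 6, mt-Co1 in 5 and mt-Rnr1 and mt-Co3 in 2 each. Without hepatocyte saringosterol replicate 3 the difference in mt-Nd4l was -1.27.

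For GW, microglia against BMDM, the difference was 0.6706 for mt-Rnr2, 0.6593 for mt-Nd1 and 1.08 for mt-Nd2, and the calls of mt-Nd1 and mt-Nd2 held in all 12 omissions. Microglia and hepatocytes differed by -0.5429 in mt-Cytb. BMDM and hepatocytes differed by -0.8866 in mt-Rnr2, a call lost in 1 of 12 omissions, that of BMDM vehicle replicate 1.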

How the results depend on the processing

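Of the tests of single named genes under other settings, 1337 kept direction and side of the threshold, 108 lost the call and 1 reversed: mt-Co1 in hepatocytes against BMDM with plain totals, 0.0797. Of the tests with a library left out, 878 kept and 382 lost it. Counts of called members that moved by over 1.5 times are given by setting, with main counts of 3 (GW in microglia), 3 (saringosterol against GW in microglia), 10 and 5 (saringosterol and GW in BMDM), 0 (saringosterol against GW in BMDM), 1, 0 and 1 (saringosterol, GW and their comparison in hepatocytes). The cause was not tested in any of them.

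Limma-voom called 6 with GW and 7 between compounds in microglia, 16 with saringosterol in BMDM, 5 with saringosterol in hepatocytes, and 9 (saringosterol, microglia against BMDM) and 4 (GW, BMDM against hepatocytes) interactions. No filter gave 5 and 5 in microglia (GW, between compounds), 3 between compounds in BMDM, 3 with saringosterol and 2 between compounds in hepatocytes, and 5 (saringosterol, microglia against BMDM), 0 (GW, microglia against hepatocytes) and 4 (GW, BMDM against hepatocytes) interactions. The fit of the 2 groups gave 5 between compounds in microglia, 11 with GW in BMDM and 2 with saringosterol in hepatocytes. DESeq2 called 13 with GW and 1 between compounds in BMDM, 10 (saringosterol, microglia against BMDM) and 3 (GW, BMDM against hepatocytes) interactions, and in the nuclear lists 10 with saringosterol and 4 between compounds in hepatocytes. In the nuclear lists between compounds, 49 genes in microglia (42 higher and 7 lower with saringosterol) and 19 in BMDM (19 higher) became 97 (94 and 3) and 29 (29 higher) with plain totals. At the main settings 25.5% (microglia) and 9.33% (BMDM) of all genes were called between compounds. With the 13 protein genes alone, the summed share in hepatocytes differed from vehicle by 0.1087 (saringosterol) and 0.0307 (GW), against 0.2887 and 0.162 for all members.

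Little pairing by replicate number was seen: over 9 pairs per cell type, correlations of deviations from group means ran from -0.147 to 0.113, with 1 over 0.1, in hepatocytes. No label says what a replicate number stands for, and low correlations cannot exclude a shared animal or culture. With the replicate block, members called were 5 and 5 in microglia (GW, between compounds), 9 with GW and 2 between compounds in BMDM, 5, 1 and 4 in hepatocytes (saringosterol, GW, between compounds) and 2 for the GW interaction of BMDM against hepatocytes. In the nuclear lists the replicate block gave 11 (saringosterol) and 25 (GW) in microglia and 13 (saringosterol) and 2 (between compounds) in hepatocytes.

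Leaving out 1 library gave 2 to 5 members with GW and 2 to 5 between compounds in microglia, 6 to 12, 1 to 7 and 0 to 3 in BMDM (saringosterol, GW, between compounds), and 1 to 4 with saringosterol and 1 to 2 between compounds in hepatocytes. Interactions ranged from 0 to 9 (saringosterol, microglia against BMDM), 7 to 14 (saringosterol, BMDM against hepatocytes), 0 to 1 (GW, microglia against hepatocytes) and 0 to 4 (GW, BMDM against hepatocytes). In the nuclear lists the ranges were 12 to 22, 22 to 32 and 28 to 47 in microglia, 3 to 19, 5 to 29 and 5 to 23 in BMDM (saringosterol, GW, between compounds), and 0 to 12 (saringosterol) and 0 to 1 (between compounds) in hepatocytes. Depth limits the tRNA genes and mt-Nd3, mt-Nd4l and mt-Atp8, which had few counts.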
